A study of Mus musculus with 4 samples.

Results

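The comparison set leukaemia cells that were c-Kit+ with high NS-GFP (c-Kit+NS-GFPhigh, drawn in the plots as c-Kit+ high) against leukaemia cells that were c-Kit- with middle NS-GFP (c-Kit-NS-GFPmiddle, drawn as c-Kit- middle), 2 of the 4 samples of the study, chosen by their labels. It leaves out the c-Kit- NS-GFP low array, on which the plasma cell gene Igha and the MHC class II genes H2-Aa and Cd74 are brightest. Of 18193 genes on the array, 11184 were compared, namely those above a floor signal of 15.3 in at least 1 of these fractions. All fractions came from the bone marrow of mice on a C57BL/6 background with acute myeloid leukaemia, made by introducing HoxA9 and Meis1 into marrow cells that carry a green fluorescent protein reporter driven by part of the nucleostemin promoter (NS-GFP). c-Kit-NS-GFPmiddle was sorted as c-Kit negative with middle NS-GFP, and c-Kit+NS-GFPhigh as c-Kit positive with high NS-GFP. The other fractions, c-Kit+NS-GFPmiddle and c-Kit-NS-GFPlow, are named in the same way. Each fraction was measured once on an Affymetrix mouse array, without a replicate and without cells from healthy marrow, and the number of animals behind a sort, their age and their sex are not given in the sources used here. Differences are therefore given by size alone, with no error or p-value.

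Hoxa9 and Meis1 are homeobox factors that together block the maturation of myeloid progenitors. c-Kit, a receptor tyrosine kinase bound by stem cell factor, marks immature blood cells and is lost as myeloid cells mature. Nucleostemin, the product of Gnl3, is a nucleolar GTPase that is abundant in dividing and stem cells. Immature granulocytic cells fill their primary granules with proteases and peroxidase, whereas later cells make secondary granules, phagocytic receptors and chemotactic receptors. According to its title the study linked a leukaemia stem cell signature with nucleostemin promoter activity. This comparison asks how the brightest c-Kit+ cells differ from c-Kit- cells that still have middle reporter activity.

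The genes of the sort went with the labels. The Kit signal was 26.4 in c-Kit-NS-GFPmiddle, 690 in c-Kit+NS-GFPmiddle, 479 in c-Kit+NS-GFPhigh and below the floor in c-Kit-NS-GFPlow. It was thus bright in both c-Kit+ fractions, and 18.1-fold higher in c-Kit+NS-GFPhigh than in c-Kit-NS-GFPmiddle. Its other probe set was below the floor in c-Kit-NS-GFPmiddle and gave a bound of at least 1.81-fold. Gnl3 had a signal of 183 in c-Kit-NS-GFPlow, 584 in c-Kit-NS-GFPmiddle, 1109 in c-Kit+NS-GFPmiddle and 1299 in c-Kit+NS-GFPhigh. It followed the order of the NS-GFP gates, but also differed by c-Kit status within the middle gate, where it was 1.90-fold higher in c-Kit+ cells. Between the c-Kit+ fractions it was 1.17-fold higher in the high gate. On its only probe set it was 2.22-fold higher in c-Kit+NS-GFPhigh than in c-Kit-NS-GFPmiddle. Hoxa9 went the other way, with 786 in c-Kit-NS-GFPmiddle and 510 in c-Kit+NS-GFPhigh (1.54-fold lower). The other Hoxa9 probe set was below the floor on both arrays and gave no ratio. Meis1 gave no signal above the floor on either array with any probe set, and the sources used here do not give whether probe sets of either gene read the introduced copies.

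The starts of 3 genes are shown because they carry the sort and its growth genes, with 250 bases before and 50 after each start from RefSeq (GRCm38.p6), 5′ to 3′ on the gene's strand. Gnl3 is the gene whose promoter drives the reporter (chr14:31019082-31019381, minus strand), though the sources used here do not give which part of it the reporter holds. Kit is the surface marker of the sort (chr5:75574737-75575036, plus strand), and Wdr43, a ribosome biogenesis gene, had the highest ratio of its list (chr17:71615965-71616264, plus strand). Capitals mark the matches to 9 searched motifs, on both strands, and stand for a description, not for a bound site.
Gnl3: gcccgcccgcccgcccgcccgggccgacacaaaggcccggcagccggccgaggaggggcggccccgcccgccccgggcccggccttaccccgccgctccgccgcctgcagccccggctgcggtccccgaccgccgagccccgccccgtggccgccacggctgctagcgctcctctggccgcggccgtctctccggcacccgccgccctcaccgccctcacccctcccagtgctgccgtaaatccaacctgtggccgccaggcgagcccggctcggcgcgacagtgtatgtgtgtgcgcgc
Kit: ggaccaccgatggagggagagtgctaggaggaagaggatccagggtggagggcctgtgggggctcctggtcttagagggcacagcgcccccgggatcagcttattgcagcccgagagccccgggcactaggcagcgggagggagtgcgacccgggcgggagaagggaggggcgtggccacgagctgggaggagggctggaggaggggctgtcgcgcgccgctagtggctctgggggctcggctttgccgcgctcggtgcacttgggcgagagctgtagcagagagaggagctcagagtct
Wdr43: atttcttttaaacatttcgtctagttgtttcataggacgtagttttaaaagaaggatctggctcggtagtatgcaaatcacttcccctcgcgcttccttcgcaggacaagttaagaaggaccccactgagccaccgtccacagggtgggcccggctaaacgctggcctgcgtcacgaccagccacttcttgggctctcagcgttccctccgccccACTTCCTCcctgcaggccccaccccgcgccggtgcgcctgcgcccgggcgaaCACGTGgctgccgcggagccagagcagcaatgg
In the Wdr43 window, ACTTCCTC is the reverse complement of GAGGAAGT, the sequence preferred by the myeloid factor PU.1, and CACGTG is the E-box that Myc and related factors can bind. No match to the 9 motifs lay in the Gnl3 and Kit windows. The windows of Wdr12 and Polr1b, next highest after Wdr43 among the ribosome biogenesis genes with a window, held no match and are not shown.

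Across the transcriptome, a ratio of 2-fold or more was found for 547 genes on the higher side in c-Kit+NS-GFPhigh (4.89% of those compared) and for 729 on the lower side (6.52%). Of these, 74 and 145 are lower bounds, since the gene lay at the floor on 1 array. Larger differences were mostly on the lower side, with 35 genes at least 4-fold higher and 185 at least 4-fold lower, and 8 and 64 past 8-fold. The log2 signals of both arrays had a Pearson correlation of 0.944 across the genes compared, which are not independent replicates. The median log2 ratio over all genes was 0.07. With the arrays as scaled in the authors' linear table, called the authors' scaling here, it was 0.20, and the counts became 794 higher and 614 lower. In the authors' second table, which has fewer probe sets and other constants per array, it was 0.02, with 316 higher and 587 lower. The share of higher genes among those past 2-fold was 56.4% under the authors' scaling and 42.9% after quantile normalization, and in the second table lower genes were again the more numerous. The only repeat measurement is a further probe set of the same gene. Over the 4457 genes that had such a probe set above the floor, probe error came to an SD of 0.37 in log2 ratio for 1 probe set, and of 451 genes past 2-fold the second probe set had the same sign in 415 (92.0%) and was itself past 2-fold in that direction in 193. Over all 4457 genes the signs matched in 72.4%.

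**Figure D1:**
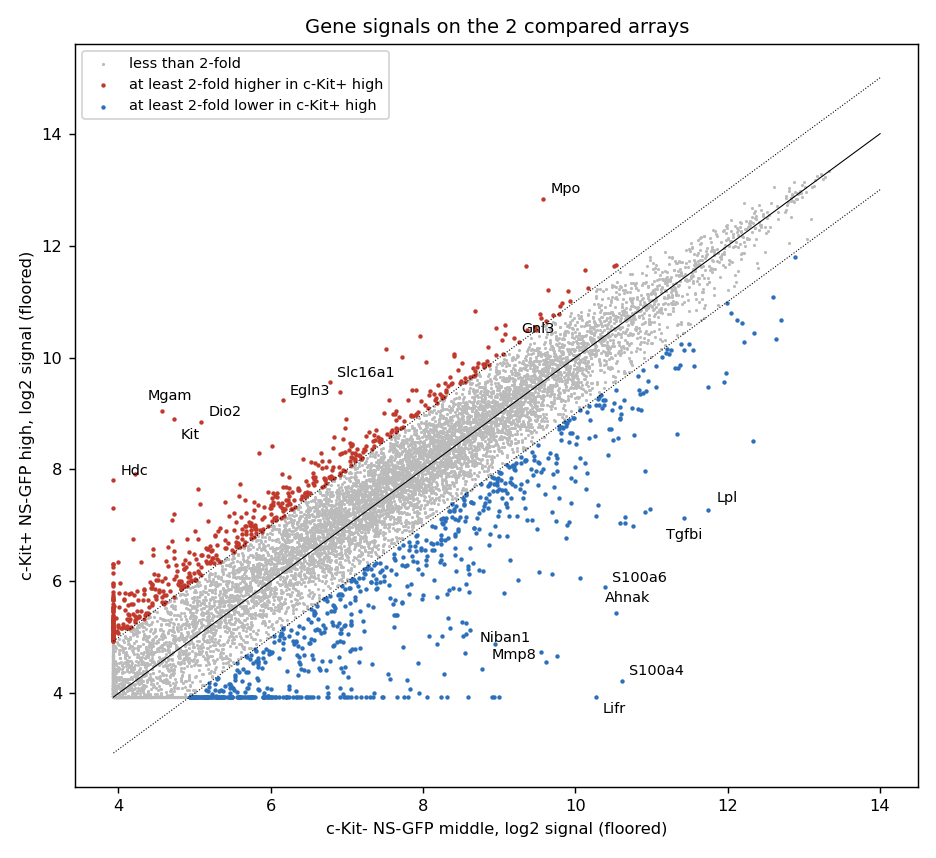
Each point is a gene, with the log2 normalized signal in c-Kit-NS-GFPmiddle on the x axis and in c-Kit+NS-GFPhigh on the y axis, both floored, and dotted lines at 2-fold. Red points are the 547 genes higher by 2-fold or more in c-Kit+NS-GFPhigh, blue points the 729 lower by as much, and the genes farthest from the diagonal, such as S100a4 and Lifr, lie on the lower side.

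The highest measured ratios, Kit apart, were led by metabolic enzymes and a granule protein. Mgam, a maltase-glucoamylase, had a signal of 23.7 in c-Kit-NS-GFPmiddle and 529 in c-Kit+NS-GFPhigh, with 503 in c-Kit+NS-GFPmiddle and none above the floor in c-Kit-NS-GFPlow. It was 22.3-fold higher in c-Kit+NS-GFPhigh, the highest ratio of all named genes, and like Kit it was bright in both c-Kit+ fractions. Dio2, an enzyme that activates thyroid hormone, went from 34.0 to 463 (13.6-fold), although its other probe sets gave bounds of only 2.00-fold and 2.09-fold. Mpo, the peroxidase of primary granules, had 193 in c-Kit-NS-GFPlow, 763 in c-Kit-NS-GFPmiddle, 7087 in c-Kit+NS-GFPmiddle and 7309 in c-Kit+NS-GFPhigh. The c-Kit+ fractions were nearly level, and the compared arrays differed 9.58-fold. Vat1, with 18.7 in c-Kit-NS-GFPmiddle and 244 in c-Kit+NS-GFPhigh, lay close to the floor on the former.

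Egln3, an oxygen-dependent prolyl hydroxylase that acts on HIF, went from 71.3 in c-Kit-NS-GFPmiddle to 606 in c-Kit+NS-GFPhigh (8.50-fold, and 3.59-fold on its second probe set). Slc16a1, a lactate transporter, went from 109 to 753 (6.89-fold), and Rgcc, a cell cycle regulator, from 182 to 1135 (6.23-fold, and 4.18-fold on the second probe set). Olr1, a scavenger receptor for oxidised lipoprotein, was 6.08-fold, the adhesion molecule gene Vcam1 5.92-fold and Armcx4 5.58-fold higher. Vcam1 lay close to the floor in c-Kit-NS-GFPmiddle (18.25), and its other probe sets gave bounds of at least 2.83-fold and at least 2.25-fold. The last of these was below the floor in c-Kit+NS-GFPmiddle. On the brightest probe set of each of these genes the c-Kit+NS-GFPmiddle array was also bright. Med18, a subunit of the Mediator complex, differed in that respect, with 65.2 in c-Kit-NS-GFPlow, 57.4 in c-Kit-NS-GFPmiddle, 110 in c-Kit+NS-GFPmiddle and 315 in c-Kit+NS-GFPhigh. The high gate stood apart from the other 3 fractions there, and the compared arrays differed 5.49-fold.

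The brightest genes in c-Kit+NS-GFPhigh that lay below the floor in c-Kit-NS-GFPmiddle were led by Hdc, which makes histamine, with a signal of 224 (at least 14.7-fold). Far2, an enzyme that makes fatty alcohols, had 159 (at least 10.4-fold). Dph7, an enzyme of diphthamide synthesis, was at least 5.21-fold, Nebl at least 5.17-fold, Mogat2, an acyltransferase of lipid synthesis, at least 4.99-fold, and Zfp141 at least 4.62-fold higher. Their signals in c-Kit+NS-GFPhigh, 70.7 to 79.7, were low.

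The lowest ratio was that of S100a4, a calcium-binding protein of motile cells, with 2374 in c-Kit-NS-GFPlow, 1565 in c-Kit-NS-GFPmiddle and 18.7 in c-Kit+NS-GFPhigh, and a signal below the floor in c-Kit+NS-GFPmiddle. Both c-Kit- fractions were bright and both c-Kit+ fractions lay near or below the floor, and the compared arrays differed 83.8-fold. S100a6, from the same family, had 1341 in c-Kit-NS-GFPmiddle and 59.6 in c-Kit+NS-GFPhigh (22.5-fold lower), and the scaffold gene Ahnak 1481 and 43.2 (34.3-fold). The other Ahnak probe sets were dim, with bounds of at least 2.45-fold and at least 1.93-fold or no signal above the floor on both arrays. Pirb, an inhibitory receptor of myeloid cells, went from 864 to 25.3 (34.2-fold), and Mmp8, neutrophil collagenase, from 783 to 23.5 (33.3-fold).

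Lpl, lipoprotein lipase, had a signal of 3409 in c-Kit-NS-GFPmiddle and 156 in c-Kit+NS-GFPhigh, and Tgfbi, a secreted adhesion protein, 2755 and 141. Both stayed above the floor on every array, and they were 21.9-fold and 19.5-fold lower in c-Kit+NS-GFPhigh. The 3 other Tgfbi probe sets gave folds of 19.3, 14.7 and at least 31.8, so probe error was small beside the difference. Niban1 was 28.3-fold lower (17.1-fold on its second probe set), Nrp1, a semaphorin and VEGF co-receptor, 20.3-fold (3.99-fold on the second), Cd300lf, a myeloid receptor, 16.8-fold, Tlr13, a sensor of bacterial RNA, 15.9-fold, and Pid1 15.3-fold. Of genes below the floor in c-Kit+NS-GFPhigh, Lifr, the receptor for leukaemia inhibitory factor, had 1230 in c-Kit-NS-GFPmiddle (at least 80.5-fold lower) and its 2 other probe sets gave at least 10.8-fold and at least 5.21-fold. The lectin gene Clec4a3 (at least 33.4-fold), Fpr2, whose product senses formyl peptides (at least 31.9-fold), the proteoglycan gene Vcan (at least 31.5-fold), Marchf1, a ubiquitin ligase that acts on MHC class II (at least 25.2-fold), and the phospholipase gene Plbd1 (at least 20.7-fold) completed this group.

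**Figure D2:**
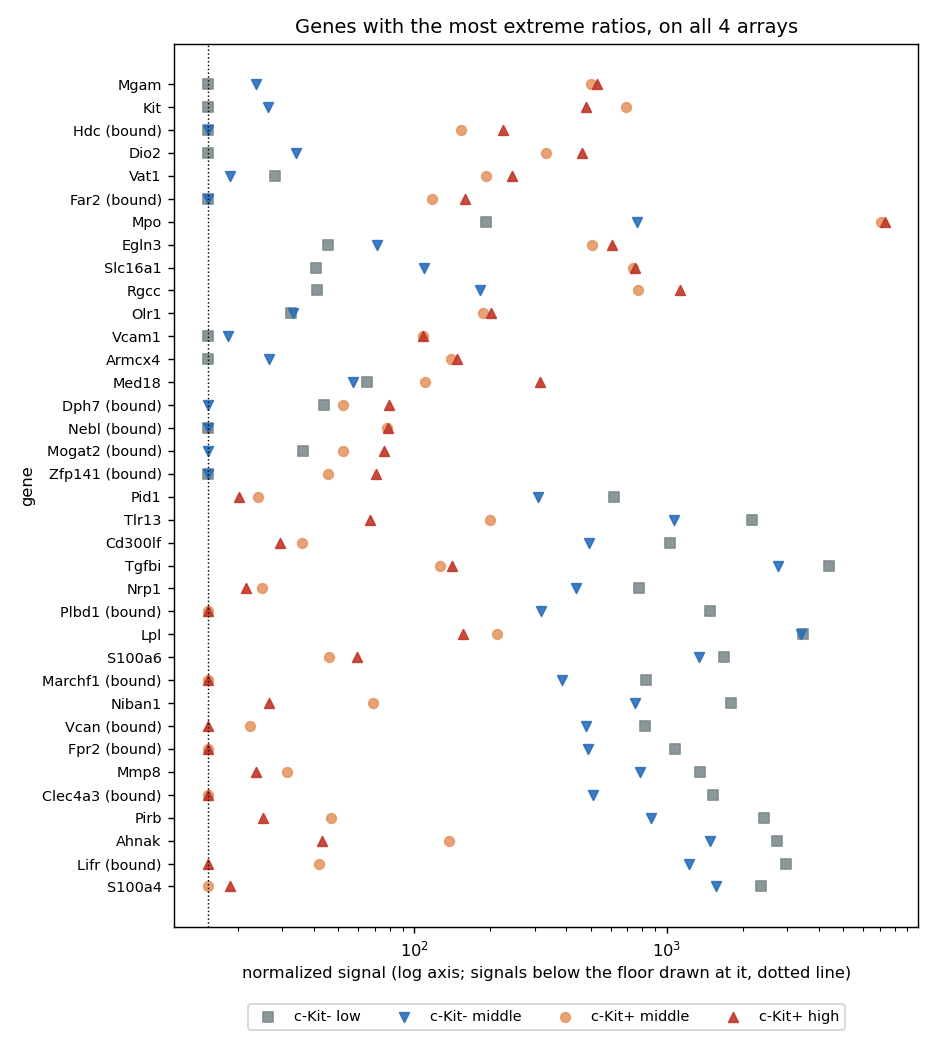
Normalized signals on a log axis for the genes with the most extreme ratios, 1 row per gene and 1 marker per array, with the floor of 15.3 as a dotted line and signals below it drawn at it. The c-Kit+NS-GFPmiddle array lies near c-Kit+NS-GFPhigh for most rows, whereas Med18 is set apart in c-Kit+NS-GFPhigh (315 against 110 in c-Kit+NS-GFPmiddle).

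Primary and later granule genes had medians of opposite sign. For the counts of these and the following lists, 4.89% of all genes compared were at least 2-fold higher and 6.52% at least 2-fold lower. On the primary granule list, none of 10 genes had a log2 ratio below 0, and 6 were past 2-fold higher (median log2 ratio 1.46). Beside Mpo these were Elane, neutrophil elastase, with 654 in c-Kit-NS-GFPmiddle and 3187 in c-Kit+NS-GFPhigh (4.87-fold), Ms4a3, which marks progenitors of granulocytes and monocytes, with 410 and 1831 (4.47-fold), Cst7 (3.15-fold), Serpinb1a, an inhibitor of neutrophil proteases (2.72-fold), and Nkg7 (at least 2.77-fold). Nkg7 is also on the T and NK cell list, and not all 10 genes encode primary granule contents. Prtn3 and Ctsg, which encode further proteases of the same granules, were nearly level at 1.05-fold and 1.21-fold, so members of 1 granule type differed in size. Of 26 genes of secondary and tertiary granules and late neutrophils, 13 were at least 2-fold lower and 1 was higher (median -1.03). After Mmp8 came Ifitm6 (11.8-fold lower), Ifitm3 (11.3-fold), Ltf, which encodes lactoferrin (6.63-fold), and Mmp9, which encodes a gelatinase (at least 6.99-fold). The ficolin gene Fcnb was 2.06-fold higher. Other secondary granule genes were nearer to level, Ngp being 1.46-fold higher, Camp having signals of 298 and 358 and Lcn2 being 1.14-fold lower.

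Genes of monocytes and macrophages were mostly lower in c-Kit+NS-GFPhigh, at 18 of 24 compared with 1 higher (median -1.92). Lgals3, galectin-3, had 5173 in c-Kit-NS-GFPmiddle and 364 in c-Kit+NS-GFPhigh (14.2-fold lower). Csf1r, the receptor for the macrophage growth factor, had 6871 in c-Kit-NS-GFPlow, 5210 in c-Kit-NS-GFPmiddle, 2112 in c-Kit+NS-GFPmiddle and 1388 in c-Kit+NS-GFPhigh. Its signal was lower at each step of the sort but bright throughout, and the compared arrays differed 3.75-fold. Gpnmb (7.65-fold), Ms4a6d (at least 8.67-fold) and Mertk, a receptor for the uptake of dying cells (at least 8.16-fold), were lower too. Vcam1, also on this list, was the member that was higher. S100 and annexin genes had 8 of 15 lower and none past 2-fold higher (median -1.21), with S100a10 5.24-fold and its partner Anxa2 2.74-fold lower. The second probe set of Anxa2 had a log2 ratio of -0.24.

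Receptors and sensors of innate defence were lower as well. Of 25 Toll-like receptor and innate sensing genes 10 were lower and none was past 2-fold higher (median -0.74). Tlr7, a sensor of single-stranded RNA, was at least 13.3-fold lower, the lectin gene Clec4n at least 10.6-fold and Tlr2, which senses bacterial lipoproteins, 3.89-fold. Tlr9, a sensor of DNA, went the other way by 1.83-fold at low signals (20.7 and 37.9). Fc receptor, phagocytosis and NADPH oxidase genes had 6 of 22 lower (median -0.75), namely Pirb, Cd300lf, the scavenger receptor gene Msr1 (at least 6.01-fold), the kinase gene Fgr (4.94-fold), the oxidase gene Cybb (3.28-fold) and Fcer1g, the shared signalling chain (2.83-fold). On the second probe set of Fgr the log2 ratio was -0.42. The other oxidase genes Cyba and Ncf1 were both 1.96-fold lower, just short of 2-fold.

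Of 22 inflammatory and NF-kappaB genes 13 were lower and 1, Nfkb2, was at least 2.28-fold higher (median -1.42). Ptger4, a prostaglandin E receptor, had 228 in c-Kit-NS-GFPmiddle and 16.8, close to the floor, in c-Kit+NS-GFPhigh (13.6-fold lower). Cd40, a costimulatory receptor, was at least 11.6-fold and the chemokine gene Ccl6 9.47-fold lower. Socs3, a feedback inhibitor of cytokine signals, had 153 in c-Kit-NS-GFPmiddle and no signal above the floor in c-Kit+NS-GFPhigh. Chemotactic and adhesion receptor genes had 8 of 21 lower and none past 2-fold higher (median -0.74). Itgb7, an integrin subunit, went from 1529 to 131 (11.6-fold lower), and the integrin genes Itgam and Itgb2, which form the complement receptor CR3, were 3.82-fold and 3.48-fold lower. Itgam, at 16.8 in c-Kit+NS-GFPhigh, lay close to the floor there. Lysosome genes differed less, with 5 of 27 lower (median -0.35), led by Lgmn (at least 3.96-fold) and Ctss (3.84-fold), both proteases, and by Psap (2.99-fold), which activates sphingolipid breakdown. Under the authors' scaling 3 lysosome genes were past 2-fold lower and 1 higher.

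Cytokine receptor genes included both Lifr and Kit. Of 27 compared, 12 were lower in c-Kit+NS-GFPhigh, and Kit was the 1 member at least 2-fold higher (median -0.72). After Lifr, the chain of the IL-13 receptor encoded by Il13ra1 was at least 17.4-fold lower, with 266 in c-Kit-NS-GFPmiddle, the IL-10 receptor gene Il10ra 3.95-fold, Tgfbr2, a TGF-beta receptor, 3.53-fold, and Il17ra 3.30-fold. Il6ra was 2.43-fold lower on its brightest probe set, whereas the other had a log2 ratio of 1.18, so the direction for this gene is unsettled. Members short of 2-fold included Flt3, 1.52-fold lower, Csf3r, the G-CSF receptor, 1.16-fold lower and Csf2rb, the shared chain of the GM-CSF and IL-3 receptors, 1.11-fold lower.

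Transcription factor genes of the myeloid lineage differed in both directions. Gfi1, a repressor needed to form granulocytes, had 64.6 in c-Kit-NS-GFPlow, 212 in c-Kit-NS-GFPmiddle, 935 in c-Kit+NS-GFPmiddle and 1032 in c-Kit+NS-GFPhigh. Both c-Kit+ arrays were bright, and the compared arrays differed 4.87-fold. Id2, an inhibitor of E proteins, had 1260 and 164 (7.68-fold lower), Klf4, a factor of monocyte formation, 3433 and 711 (4.83-fold), Maf, a factor of macrophages, was at least 3.51-fold and Irf5 3.34-fold lower. In all, 5 of 20 myeloid factors were lower and 2 higher, the other being Egr1 (2.38-fold), with a median of -0.58. The gene of PU.1, Spi1, was 2.00-fold lower by rounding and just short of 2-fold, and Cebpa was level at 1.02-fold.

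Stem and progenitor genes were higher at 6 of 23 compared (26.1%, against 4.89% of all genes), with none past 2-fold lower (median 0.46). They were Gata2, a factor of stem and mast cells (2.91-fold, 48.6 against 142), Adgrg1, a stem cell surface receptor (at least 2.64-fold), the ligand gene Angpt1 (2.49-fold), Sox4 (2.40-fold, but 1.40-fold on its second probe set), Lgr4 (2.25-fold) and Myb, a factor that keeps progenitors immature (2.19-fold, 1481 against 3240). All except Gata2 and Adgrg1 were brighter in c-Kit+NS-GFPmiddle than in c-Kit+NS-GFPhigh, for example Myb with 3921 and Angpt1 with 77.5 against 62.4. The surface marker gene Cd34 was 1.43-fold higher and Runx1 1.67-fold lower. A further 7 members, Tal1, Mecom, Prdm16, Hlf, Slamf1, Procr and Tek, were at the floor on both compared arrays. Of 7 Hoxa genes and cofactors compared, Hoxa5 was 2.12-fold higher at low signals and none was past 2-fold lower, and the median of -0.16 ranged from -0.54 to 0.03 over the alternative settings. Genes of eosinophils, basophils and mast cells had 3 of 9 higher, namely Hdc, Siglecf (2.62-fold) and Prg3 (at least 2.42-fold), and 9 further members were at the floor on both arrays.

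Growth genes were higher together, though by modest folds. Of 85 genes of ribosome biogenesis and the nucleolus 83 had a log2 ratio above 0 and 17 were at least 2-fold higher (median 0.70, against 0.07 for all genes). Wdr43 went from 188 in c-Kit-NS-GFPmiddle to 606 in c-Kit+NS-GFPhigh (3.22-fold), Wdr12, a partner in large subunit assembly, from 178 to 514 (2.88-fold), Polr1b, a subunit of RNA polymerase I, from 102 to 283 (2.79-fold), and Utp4 from 223 to 602 (2.70-fold). The second probe sets of Wdr43 and Wdr12 had log2 ratios of 0.61 and 0.42. Dkc1, the enzyme that makes pseudouridine in rRNA, was 2.54-fold higher. Gnl3 itself belongs to this list, and of its relatives Gnl2 was 1.79-fold higher and Gnl3l 2.50-fold, with a log2 ratio of -0.14 on the second Gnl3l probe set. The abundant nucleolar genes Npm1, Ncl and Fbl differed by 1.47-fold, 1.44-fold and 1.09-fold. Under the authors' scaling 31 of the 85 were at least 2-fold higher (median 0.85). With that scaling all genes moved up as well, with 794 of 11172 at least 2-fold higher and a median of 0.20.

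Myc had a signal of 409 in c-Kit-NS-GFPmiddle and 866 in c-Kit+NS-GFPhigh (2.12-fold), and 960 in c-Kit+NS-GFPmiddle. Of 49 genes of the Myc network and of linked growth pathways, 9 were at least 2-fold higher and none was past 2-fold lower (median 0.56). After Slc16a1 the list was led by Slc7a5, an amino acid transporter (3.38-fold), Phgdh, which starts serine synthesis (2.99-fold), Odc1, which starts polyamine synthesis (2.95-fold), and Shmt1, an enzyme of folate metabolism (2.63-fold). Mxd4, an antagonist in the Myc network, was 1.82-fold lower. Glycolysis and hypoxia genes had 3 of 28 higher, Egln3, Slc16a1 and the growth factor gene Vegfa (at least 3.45-fold), and 1 lower, Ddit4, an inhibitor of mTORC1, which had 567 and 83.8 (6.76-fold lower), with a median of 0.18. Ldha, lactate dehydrogenase, was 1.70-fold higher. The 28 include Pigq, which is not a glycolysis gene and was nearly level at 1.05-fold.

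Other parts of the growth machinery had few genes past 2-fold. The median over all genes compared was itself above 0, at 0.07, and at 0.20 under the authors' scaling. The share of all genes above 0 was not counted. Of all genes compared, 4.89% were at least 2-fold higher and 6.52% at least 2-fold lower. Of 18 aminoacyl-tRNA synthetase genes 14 had a log2 ratio above 0 (median 0.26) and none was past 2-fold in either direction, whereas 1 was under the authors' scaling (median 0.47). Of 54 oxidative phosphorylation genes 37 had a log2 ratio above 0 (median 0.10), and none was past 2-fold here or under the authors' scaling (median 0.32). Of 59 mitochondrial ribosomal protein genes 52 had a log2 ratio above 0 (median 0.30), and those past 2-fold higher were Mrps25 (2.59-fold) and Mrpl50 (2.08-fold), whose second probe sets had log2 ratios of 0.45 and 0.09. Of 35 cytosolic ribosomal protein genes, Rpl12 was 2.88-fold higher and none was lower past 2-fold (median 0.03). Cholesterol synthesis genes had 1 of 22 higher, Lss, with a log2 ratio of -0.29 on its second probe set, and 1 lower, the efflux transporter gene Abca1 (3.86-fold), with a median of 0.02. Over the alternative settings the median ranged from -0.07 to 0.14 for cytosolic ribosomal protein genes and from -0.06 to 0.16 for cholesterol synthesis genes.

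Cell division genes were higher as a group, at small folds. Over all genes compared the median was 0.07, and 4.89% were at least 2-fold higher. Of 44 genes of the G2 and M phases 43 had a log2 ratio above 0 and 7 were at least 2-fold higher (median 0.64), among them Kif22, a chromosome-binding kinesin (2.43-fold), Smc2, a condensin subunit (2.18-fold), Ect2, which directs cytokinesis (2.11-fold), and the checkpoint kinase genes Ttk and Bub1 (both 2.09-fold). Cdk1, the mitotic kinase, had 109 in c-Kit-NS-GFPlow, 817 in c-Kit-NS-GFPmiddle, 716 in c-Kit+NS-GFPmiddle and 1478 in c-Kit+NS-GFPhigh. The middle fractions were close to each other despite their c-Kit status and the high gate was the brightest, 1.81-fold above c-Kit-NS-GFPmiddle. Under the authors' scaling 16 of the 44 were past 2-fold (median 0.88, against 0.20 for all genes). S phase genes had 46 of 47 above 0 and 5 past 2-fold higher (median 0.47), led by Uhrf1, which maintains DNA methylation (2.86-fold, with a log2 ratio of 0.30 on the second probe set), the nuclease gene Exo1 (2.69-fold) and Ccne2, a cyclin of S phase entry (2.54-fold). E2f2, an E2F factor, was the exception at 3.13-fold lower, with a log2 ratio of -1.77 on its second probe set.

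Inhibitors of the cell cycle and quiescence genes were lower at 6 of 22 (27.3%, against 6.52% of all genes). In this list 1 gene was higher (4.55%, against 4.89%), and the median was -0.57. Cdkn1a, which encodes p21, had 346 in c-Kit-NS-GFPmiddle and 72.8 in c-Kit+NS-GFPhigh (4.75-fold lower), Foxo1 was 2.72-fold, Cdkn1b, which encodes p27, 2.60-fold, Pink1 2.28-fold, Btg2 2.27-fold and Rb1 2.14-fold lower. A second probe set of Foxo1 had a log2 ratio of -0.01. Cdkn1c, which encodes the related inhibitor p57, was at least 4.06-fold higher at a signal of 62.1. Of 24 p53 target and apoptosis genes 7 were lower and none was past 2-fold higher (median -0.27). The BH3-only gene Bcl2l11, which encodes the death activator Bim, had 1335 in c-Kit-NS-GFPlow, 549 in c-Kit-NS-GFPmiddle, 552 in c-Kit+NS-GFPmiddle and 161 in c-Kit+NS-GFPhigh. The middle fractions were level and the high gate was 3.41-fold below c-Kit-NS-GFPmiddle. Bmf, another BH3-only gene, had 489, 144, 83.3 and 27.9 in the same order (5.16-fold lower), with a log2 ratio of -0.56 on its second probe set. Trp53inp1, a p53 target, was 4.17-fold and Casp6 2.88-fold lower, while the survival gene Bcl2 was level at 1.07-fold and Mcl1 1.73-fold lower.

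Of 30 genes of the immediate early and stress response 5 were lower (16.7%, against 6.52% of all genes). In this list 2 genes were higher (6.67%, against 4.89%), and the median was -0.26. Zfp36l1, which promotes mRNA decay, went from 245 to 16.1 (15.2-fold lower), Myadm was 4.03-fold, the kinase gene Sgk1 2.86-fold, Fosl2 2.47-fold and Junb 2.21-fold lower, and Egr1 and Gadd45b (2.17-fold) were higher. Of 33 interferon-stimulated genes 7 were lower (21.2%) and 1 higher (3.03%, against 4.89% of all genes), with a median of -0.41. Samhd1, which depletes nucleotides, had 1122 and 200 (5.61-fold lower), Ifi27l2a was at least 3.28-fold and Gbp2 2.92-fold lower, while Gbp3 had 363 and 956 (2.63-fold higher). Xaf1 was 2.69-fold lower on its brightest probe set, with a log2 ratio of 0.11 on the other.

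**Figure D3:**
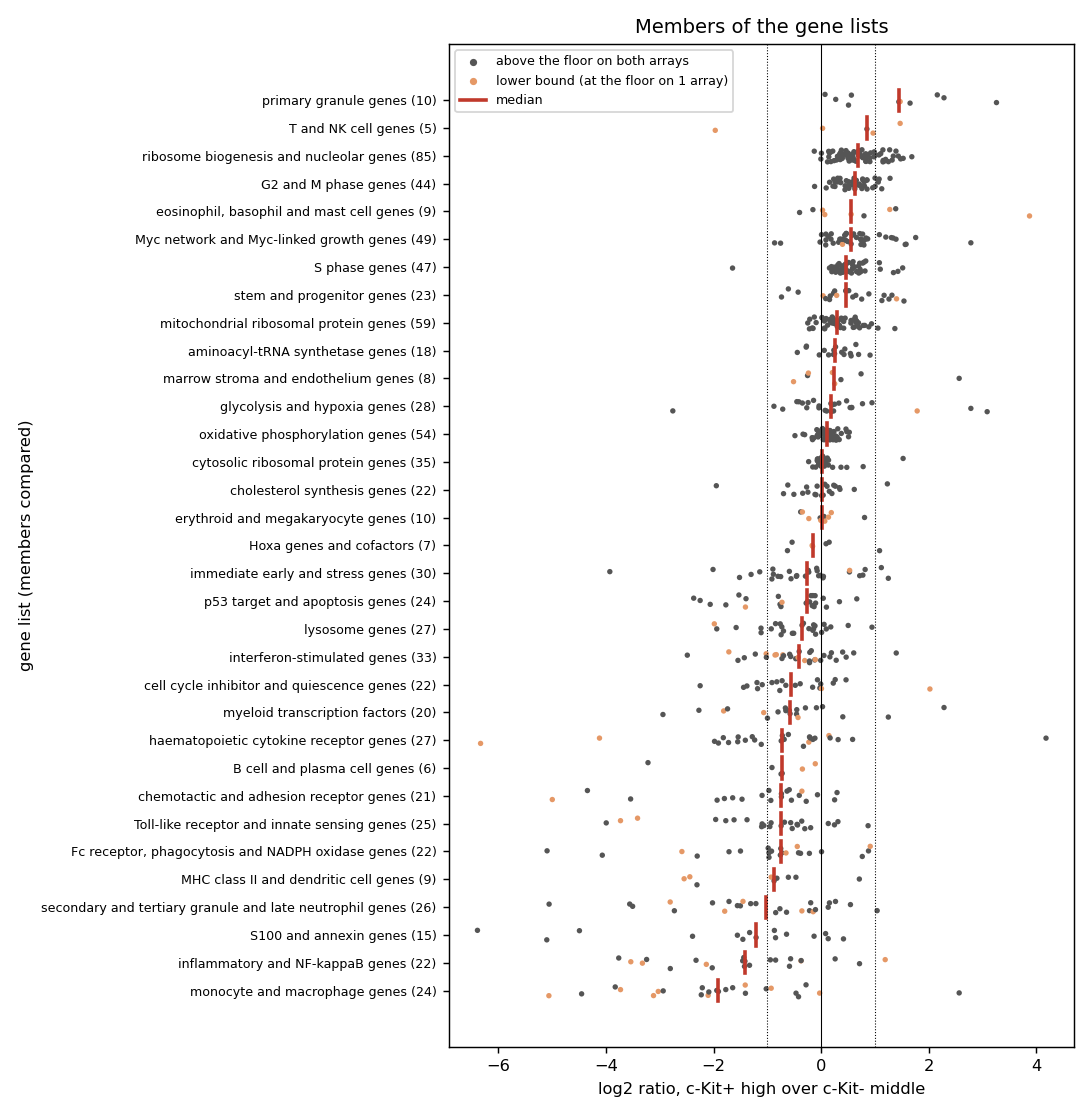
Log2 ratios of c-Kit+NS-GFPhigh over c-Kit-NS-GFPmiddle for the members of each gene list, 1 point per gene, with the median as a red bar, lower bounds in orange and dotted lines at 2-fold. Lists of mature myeloid genes lie at the bottom with wide spreads, whereas most members of the ribosome biogenesis, Myc network, S phase and G2 and M phase lists lie to the right of 0 (medians 0.47 to 0.70), with single S phase and Myc network genes far from the others.

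Markers of other cell types were examined because a sorted fraction can hold them, and in bulk RNA fewer cells of a type and less RNA per cell cannot be told apart. Ptprc, the leukocyte marker CD45, was bright on both arrays (3297 in c-Kit-NS-GFPmiddle and 1665 in c-Kit+NS-GFPhigh), and all 7 myeloid markers were above the floor on both. Igha, the constant region of IgA of plasma cells, had 4915 in c-Kit-NS-GFPlow, 609 in c-Kit-NS-GFPmiddle and 65.4 in c-Kit+NS-GFPhigh (9.31-fold lower), and no signal above the floor in c-Kit+NS-GFPmiddle. Jchain, its partner, had 41.6 and 22.1, and Cd79a and Ms4a1 were below the floor on both arrays. Cd79b was above the floor on both, with 163 and 98.9, and Ighm, on the wider B and plasma cell list, had 2572 and 1535. The summed signal of the 5 B and plasma cell markers on the array was 821 in c-Kit-NS-GFPmiddle, most of it from Igha, and 194 in c-Kit+NS-GFPhigh. In the list for MHC class II and dendritic cells, 3 of 9 genes were at least 2-fold lower (median -0.87). They were Cd74 (at least 5.84-fold), H2-Eb1 (at least 5.43-fold) and H2-Aa (254 and 51.2, 4.95-fold). Of the 9, 8 had a log2 ratio below 0, and the class II gene H2-Ab1 went the other way at 1.64-fold higher. Of the 4 dendritic cell markers, Siglech and Xcr1 were below the floor on both arrays. The summed signal of the 4, which came mostly from H2-Aa and Cd74, was 354 and 75.3. These signals, H2-Ab1 apart, move with the lower monocyte and macrophage genes, and their part in those was not tested.

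All 6 T and NK cell markers were below the floor in c-Kit-NS-GFPmiddle, and Cd8a, at 29.9, was the 1 marker above it in c-Kit+NS-GFPhigh. Of the wider T and NK cell list, 5 of 17 genes were compared, 4 of them as bounds, with 1 higher (Nkg7) and 1 lower (Klrd1, at least 3.91-fold) and a median of 0.85. The B and plasma cell list had 6 of 17 genes compared, 1 of them lower (Igha), with a median of -0.73. None of 10 erythroid and megakaryocyte genes was past 2-fold (median 0.02, with a range of -0.38 to 0.08 over the alternative settings), and of 8 stroma and endothelium genes only Vcam1 was (median 0.23). As a sign of RNA integrity, the control probe sets at the 3′ end of Actb were compared with those at its 5′ end, and the ratio was 3.28 in c-Kit-NS-GFPmiddle and 4.70 in c-Kit+NS-GFPhigh, and that of Gapdh 3.91 and 3.41. Its part in the results was not tested.

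The c-Kit+NS-GFPmiddle array lies between the compared fractions in the sort and is set beside them here. The pairings share arrays, so each is given as its own value. G2 and M phase genes had a median log2 ratio of -0.06 for c-Kit+NS-GFPmiddle over c-Kit-NS-GFPmiddle, with none of 44 past 2-fold, and of 0.68 for c-Kit+NS-GFPhigh over c-Kit+NS-GFPmiddle, with 5 past 2-fold (against 1.01% of all genes there). Under the authors' scaling the first of these was 0.11, against 0.17 for all genes, and the second 0.73. Primary granule genes showed the opposite division, with 1.10 and 5 of 10 past 2-fold (3.57% of all genes) at the first step and 0.14 at the second. Ribosome biogenesis genes had 0.50 and 0.13, monocyte and macrophage genes -1.57 (16 of 24 lower, against 5.29% of all genes) and -0.36, and stem and progenitor genes 0.72 and -0.17, in that order. S phase genes had 0.35 and 0.23.

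**Figure D4:**
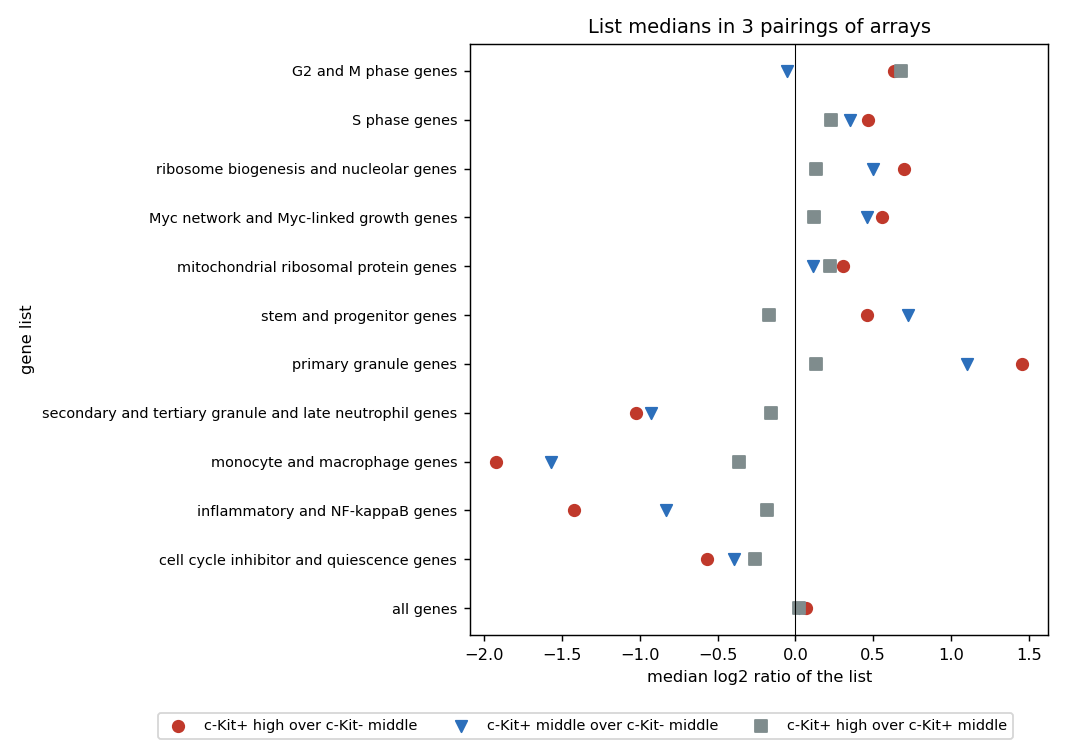
Median log2 ratio of each gene list (x axis) in 3 pairings of arrays, with 1 marker per pairing. For the G2 and M phase genes the median for c-Kit+NS-GFPhigh over c-Kit-NS-GFPmiddle (0.64) lies beside that for c-Kit+NS-GFPhigh over c-Kit+NS-GFPmiddle (0.68), and for mitochondrial ribosomal protein genes it is also nearer to that pairing, whereas for primary granule and monocyte genes it lies nearer to that for c-Kit+NS-GFPmiddle over c-Kit-NS-GFPmiddle.

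Promoter sequences were set beside the ratios as a description. A promoter was in the RefSeq table for 9147 of the 11184 genes (81.8%), and the first start listed was used. CACGTG occurred in 12.7% of 457 promoters of genes at least 2-fold higher in c-Kit+NS-GFPhigh, in 8.26% of 593 promoters of genes at least 2-fold lower and in 10.4% of all 9147. CCGGAAGT, the core sequence of ETS factors, occurred in 8.53%, 3.20% and 8.87%, and GAGGAAGT in 3.06%, 6.41% and 3.25%, in the same order. Among 74 promoters of the ribosome biogenesis list, 17 (23.0%) held CACGTG, 24 (32.4%) held CCGGAAGT and 7 (9.46%) held GAGGAAGT. The other motifs searched were TTTCGCGC or TTTGGCGC, TTGCGCAA, TGATTTAT, the NRF1 palindrome, the NF-kappaB motif and a double GAAA motif of interferon regulatory factors. The last of these occurred in 2.63% of promoters of higher genes, 5.40% of those of lower genes and 3.02% of all. CCGGAAGT and GAGGAAGT share their last letters, GGAAGT, but neither contains the other. The median GC content was 60.0%, 60.3% and 60.7%.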

How the data were processed

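Per the labels' protocols, total RNA came from TRIzol extraction of 4 sorted fractions of mouse leukaemia cells, and cRNA carrying biotin was put on 1 Affymetrix array for each. GCOS 1.2, MAS5 and R 3.0.2 are named in the submitters' processing notes, with no role given for any of them. The deposited intensity values are linear MAS5-type signals of 45101 probe sets. The authors also deposited a smaller table, with log2 values for 17419 probe sets. These equal the log2 of those signals plus 1 constant per array, within 5.02e-09.

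The signals of the 45037 probe sets other than controls were quantile normalized over the 4 arrays, since their trimmed means (2% off each end) were 99.0 in c-Kit-NS-GFPmiddle and 113 in c-Kit+NS-GFPhigh. They were floored at the 50th percentile (15.3) and taken to log2. The platform annotation gives 34945 probe sets 1 gene, 932 several and 9160 none listed. By gene ID 34741 were matched to RefSeq symbols, and 204 kept the platform's. The probe set with the highest mean signal stood for a gene, and 7009 genes that reached the floor on neither array were not compared. With 1 array each the precision is unknown, and no test across samples is possible.

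The text names the sort and model genes (Kit, Gnl3, Hoxa9, Meis1), the 12 highest and 12 lowest ratios above the floor on both arrays, the 6 brightest bounds in each direction, and, for each of 33 lists, the most extreme members on the side of its median plus any member past 2-fold on the other side. Genes with only a predicted or clone name were skipped. Further genes were named after their values were seen, to show members near 2-fold or level. The members and lists were chosen with earlier results of these data known. The steps were tested on simulated data. Alternatives were other scalings, floors, probe set rules and the second table. Python 3.11.15, numpy 2.4.6, pandas 2.3.3 and matplotlib 3.10.9 were used.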

Additional observations from a re-analysis of the deposited data

How the results depend on the processing

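The counts of genes past 2-fold depended on the floor. At a floor of the 25th percentile 1783 genes were higher and 1887 lower, with no floor 2633 and 2709, and at a floor of the 75th percentile 201 and 361, the number of genes compared being 16044, 17745 and 7138. The second deposited table gave 316 higher and 587 lower. It differs in both the genes it holds and the constants added per array (0.65 for c-Kit-NS-GFPmiddle and 0.44 for c-Kit+NS-GFPhigh), whose parts were not separated. Quantile normalization over the compared arrays alone gave 558 and 741, the authors' scaling 794 and 614, and the mean of probe sets 420 and 636. Signs were checked for 211 genes, namely those named by rank or sort and list members past 2-fold, and for the list medians. Among these, no gene or list median past 2-fold changed sign under an alternative that gave it a value. Other genes past 2-fold were not checked. The second table has only 21 of the 38 genes named by rank or sort, and some had no value at the 75th percentile. Of those 38, 27 moved by more than the probe error (0.37 on the log2 scale) at that floor and 7 did not, and with the mean of probe sets 12 moved and 26 did not. Over 211 genes that include list members, 58 moved and 115 did not at that floor, and 60 moved and 151 did not with the mean of probe sets. Folds of genes near the floor on 1 array are therefore rough. With 1 array per fraction no replicate could be left out. No paired analysis was possible because each fraction has 1 array.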
